A study of Mus musculus with 6 samples.

Results

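Transcripts of 38 genes of glycolysis and the hypoxia response were compared between stromal Mmp14 knockout and wild-type mammary glands. The genes were named by function, with earlier results of these data known. Each was read by its brightest probe set carrying 1 gene symbol. In this way 32 of the 38 could be read, among 22180 genes in all. Aldoa, Bnip3l and Ankrd37 share their probe set with another symbol, and no probe set here carries the symbol Gpi1, Eno1 or Pfkfb1, so these 6 genes were not analysed here. The knockout group held 3 mice of genotype Dermo1Cre/Mt1-mmp(fl/fl), in which a Cre recombinase driven from Dermo1, a gene of mesenchymal cells now named Twist2, removes floxed Mt1-mmp, now named Mmp14. The control group held 3 littermates of genotype Mt1-mmp(+/+). All mice were C57BL/6J and 4 weeks old, around the onset of puberty. Every array labelled with the Cre also carries the floxed allele, and Cre effects and the loss of Mmp14, a membrane-anchored collagenase, cannot be told apart. Whole inguinal glands were homogenised, and 1 Affymetrix whole-transcript array was run per mouse from 400 ng of total RNA.

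Glycolysis splits glucose into pyruvate in a chain of cytosolic enzymes, several of which exist as isoenzymes from separate genes with tissue preferences. Pyruvate is then either reduced to lactate or oxidised in mitochondria. When oxygen is low, the alpha subunits encoded by Hif1a and Epas1 escape hydroxylation by the Egln enzymes, pair with the product of Arnt, and bind short hypoxia response elements near glycolytic and other genes. The alpha subunits are controlled mainly through protein stability, so transcript levels do not measure their activity. Fat, which makes up most of the young mammary gland, takes up glucose through the insulin-regulated carrier encoded by Slc2a4, and thermogenic fat cells use glucose heavily.

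Mmp14 itself read 8.57, 8.55 and 8.75 log2 units in knockout glands, against 11.18, 10.55 and 10.90 in wild-type glands, so that 21.0% of the wild-type signal was left (adjusted p = 0.000454 by limma). The arrays therefore go with their labels. Over all genes, arrays of the same group correlated at 0.990 to 0.992, and arrays of different groups at 0.975 to 0.983. Markers of other cell types moved with genotype. In knockout glands 12 of 12 luminal epithelial, 9 of 11 basal epithelial, 6 of 11 fibroblast, 5 of 10 macrophage and 3 of 9 lymphocyte markers fell. There 6 of 10 thermogenic adipocyte, 3 of 10 endothelial, 2 of 11 mature adipocyte and 1 of 3 erythroid markers rose. Beside these, 7.2% of all genes fell and 5.05% rose. None of 22 skeletal muscle and none of 7 epidermal markers passed limma's adjusted threshold, although at an unadjusted p under 0.05 there were 1 higher and 4 lower muscle markers and 2 lower epidermal markers in the knockout. Wild-type array 1 was nevertheless the brightest wild-type array for 22 of 22 muscle markers, where list means were 3.12 to 3.23 log2 units on knockout arrays and 5.28, 3.56 and 3.17 on wild-type arrays 1, 2 and 3. Among epithelial defining markers, luminal Krt8 read 5.59 to 6.46 in the knockout against 8.79 to 9.23 in wild type. Basal Krt14 read 2.18, 2.42 and 2.43 in the knockout, all below the 33rd percentile of levels over genes (2.68), against 5.44, 5.20 and 5.84 in wild type, and Krt15 and Cldn7 lay below it on 2 knockout arrays each. The adipocyte marker Adipoq read 9.41 to 9.52 against 9.13 to 9.23 and did not pass (limma adjusted p = 0.133). The 2 mature adipocyte markers that rose were Plin1 and Lipe. In whole tissue, fewer cells of a type and less RNA per cell cannot be told apart.

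Of the 32 genes, 5 rose in the knockout gland (Ddit4, Bnip3, Slc2a3, Ldhb and Pgk1), 2 fell (Aldoc and Hif1a) and 25 did not pass the test. The 7 calls are 21.9% of the genes, beside 12.2% over all genes, where 5.05% rose and 7.2% fell. The knockout and wild-type ranges did not overlap for 14 genes higher and 3 lower in the knockout, beside 17.2% and 15.4% of all genes. The shares over all genes include dim genes. A knockout mean below the 33rd percentile of levels (2.68) was found for 7347 of the 22180 genes and 0 of the 32. Without the lowest 33% of genes, 3272 genes were called (1417 higher and 1855 lower), with 7 rises and 2 falls among the 32. These are more calls than the 2717 of the main fit, out of fewer genes. The share over the genes kept is therefore above 12.2%, and the gap between 21.9% and 12.2% is not one between genes of like level. How much of the gap in shares goes with level was not tested. The median difference over the 32 genes was +0.18 log2 units, knockout minus wild type, beside +0.03 over all genes. Of the 32 differences, 22 were positive and 10 negative, beside 12073 positive and 10107 negative over all genes. Most of the genes thus lay higher in the knockout, with others lower, as the heat map of single arrays shows.

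**Figure D1:**
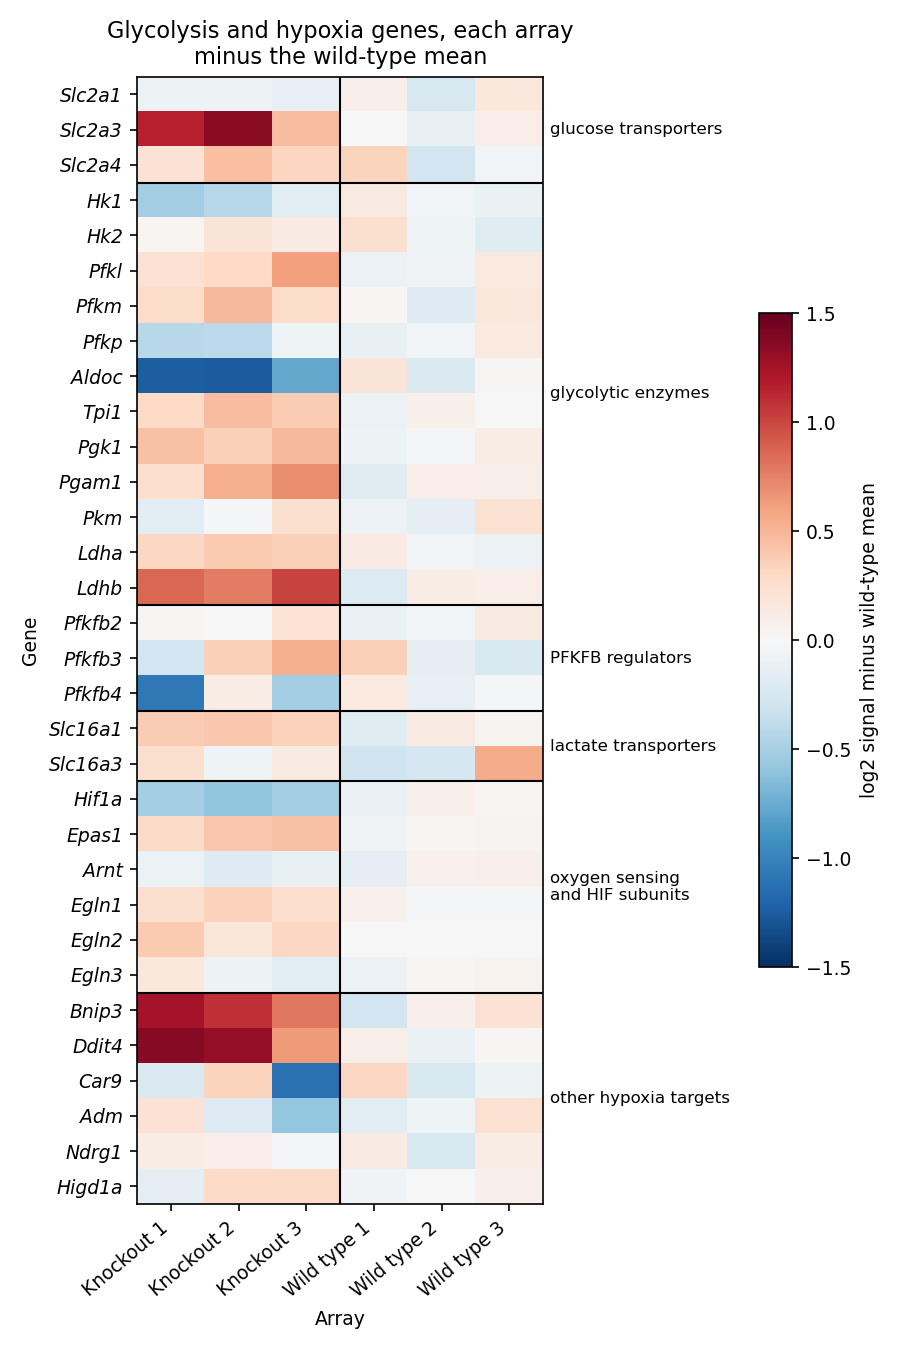
Log2 signal of each of the 32 genes on each array minus the gene's wild-type mean, in rows grouped by role, with the 3 knockout arrays left of the 3 wild-type arrays. Red is above and blue below the wild-type mean; Slc2a3, Ldhb, Bnip3 and Ddit4 are red on every knockout array, and Aldoc and Hif1a are blue.

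The start regions of the genes with the largest rise or fall past the threshold in each role are shown because their sequence can be read for the core of the hypoxia response element, ACGTG or GCGTG on either strand. Each sequence runs from 250 bases before to 50 bases after the annotated start, 5′ to 3′ along the gene, from RefSeq on build GRCm38.p6, and capitals mark every match to the core. For Aldoc the first of 2 annotated starts is shown, and no entry for Slc2a3 was used here.
Ldhb, chr6:142507908-142508207, minus strand: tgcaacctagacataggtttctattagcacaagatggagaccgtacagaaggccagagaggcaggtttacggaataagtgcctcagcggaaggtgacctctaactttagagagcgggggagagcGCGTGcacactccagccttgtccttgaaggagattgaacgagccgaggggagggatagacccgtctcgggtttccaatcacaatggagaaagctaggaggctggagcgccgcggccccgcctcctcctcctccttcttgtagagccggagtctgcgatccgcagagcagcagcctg
Aldoc, chr11:78322823-78323122, plus strand: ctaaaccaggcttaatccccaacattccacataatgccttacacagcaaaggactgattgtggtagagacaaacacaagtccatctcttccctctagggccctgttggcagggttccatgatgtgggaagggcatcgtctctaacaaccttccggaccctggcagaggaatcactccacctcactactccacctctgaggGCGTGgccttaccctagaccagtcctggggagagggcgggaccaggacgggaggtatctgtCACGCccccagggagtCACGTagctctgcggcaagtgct
Hif1a, chr12:73907617-73907916, plus strand: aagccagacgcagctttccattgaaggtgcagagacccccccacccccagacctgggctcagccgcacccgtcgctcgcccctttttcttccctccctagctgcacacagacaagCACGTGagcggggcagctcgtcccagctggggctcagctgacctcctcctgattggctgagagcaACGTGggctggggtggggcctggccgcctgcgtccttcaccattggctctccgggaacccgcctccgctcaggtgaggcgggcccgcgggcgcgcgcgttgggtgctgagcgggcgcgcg
Ddit4, chr10:59951721-59952020, minus strand: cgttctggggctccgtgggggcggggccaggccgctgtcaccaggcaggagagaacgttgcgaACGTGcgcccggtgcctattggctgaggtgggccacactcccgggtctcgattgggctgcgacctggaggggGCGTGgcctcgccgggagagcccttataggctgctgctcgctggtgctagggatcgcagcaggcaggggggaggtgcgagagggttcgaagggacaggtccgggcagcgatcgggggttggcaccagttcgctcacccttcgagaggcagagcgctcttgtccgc
Both the genes that rose and those that fell carry the core: Ldhb holds 1 match, Aldoc 3, Hif1a 3 and Ddit4 2. The Hif1a stretch includes CACGTG, the E-box read by several other factors, which counts as a match on each strand. Start regions were available for 28 of the 32 genes, 39 regions in all, and 35 of these (89.7%) held the core, beside 50.1% of 20611 regions of all genes tested. ACGTG alone was present in 61.5% and in 21.4%, and CACGTG in 20.5% and in 8.07%. The regions of the 28 genes were also richer in G and C, with a median of 61.3% beside 56.7%. How much of the motif share goes with base composition was not tested. The genes were named by function, the hypoxia response among them, so the list is not a neutral sample for this core. A gene with several annotated starts is counted more than once. A match describes these letters and says nothing of binding in this tissue.

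Glucose enters cells through the facilitative carriers. Slc2a3, which encodes a high-affinity carrier best known from neurons, read 5.68, 5.87 and 4.98 log2 units in knockout glands, against 4.52, 4.41 and 4.62 in wild-type glands. All knockout arrays lay above all wild-type arrays, with knockout 3 the nearest to them. It rose 1.99-fold (+0.99 ± 0.22 SE, limma adjusted p = 0.0273). It did not pass when any single array but knockout 3 was dropped (0.0665 to 0.0870), and without knockout 3 the difference was +1.26 (adjusted p = 0.00372). Slc2a4, the insulin-regulated carrier of fat and muscle, read 8.98, 9.21 and 9.08 against 9.09, 8.47 and 8.72. Wild-type array 1, the one bright for muscle markers, reached into the knockout range. The difference was +0.33 ± 0.17 (adjusted p = 0.271), and +0.50 without that array, which did not pass either (adjusted p = 0.105). Wild type 2 had a higher muscle list mean than wild type 3 (3.56 against 3.17) but a lower Slc2a4 reading. The part of muscle RNA in the Slc2a4 values was not tested. Slc2a1, the basal carrier of most cells, differed by -0.10, with a 95% interval of -0.41 to +0.22.

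The enzymes of the chain did not move as one block. Of 12 measured, Ldhb and Pgk1 rose, Aldoc fell and 9 did not pass. The calls are 25.0% of the 12, beside 12.2% over all genes. The median difference of the 12 was +0.35. For 7 of the 12, every knockout array lay above every wild-type array, beside 17.2% of all genes. For 2, Aldoc and Hk1, every knockout array lay below, beside 15.4% of all genes. Along the upper part of the chain, the paralogs differed in direction as measured. Hk1, the hexokinase of most tissues, read 5.96, 6.06 and 6.32 in knockout against 6.62, 6.44 and 6.38 in wild-type glands, a difference of -0.37 ± 0.14 that did not pass (adjusted p = 0.133). Hk2, the insulin-responsive hexokinase of fat and muscle, differed by +0.12 (interval -0.21 to +0.44). Of the phosphofructokinase subunits, which catalyse the main committed step, the liver-type Pfkl (+0.38 ± 0.14, adjusted p = 0.134) and the muscle-type Pfkm (+0.34 ± 0.14, adjusted p = 0.157) lay higher in every knockout array, and the platelet-type Pfkp differed by -0.29 ± 0.14 (adjusted p = 0.238). Pfkm read 5.64, 5.85 and 5.64 in knockout glands, against 5.40, 5.17 and 5.53 in wild-type glands, and the part of muscle RNA in these values was not tested.

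**Figure D2:**
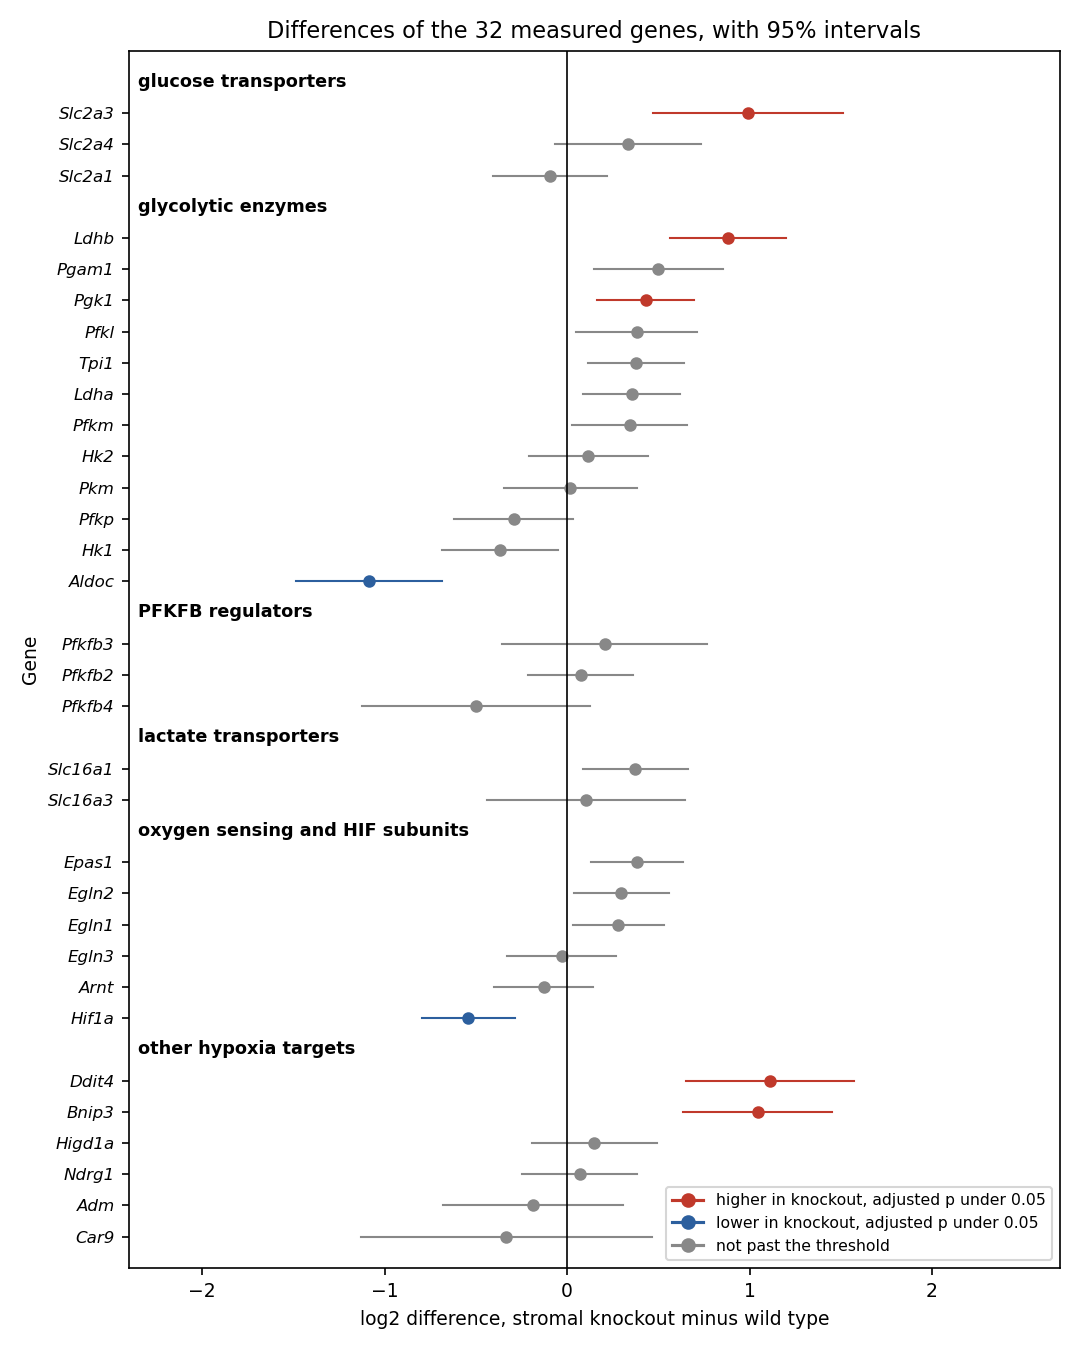
Difference of each of the 32 genes in log2 units, knockout minus wild type (points), with its 95% interval from the limma fit (lines), grouped by role and coloured by the call. The 5 red genes rose, the 2 blue genes fell, and among the enzymes Ldhb (+0.88) and Aldoc (-1.08) lie at the ends.

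Aldoc, the aldolase isoenzyme known from brain, read 4.84, 4.82 and 5.30 log2 units in knockout glands, against 6.26, 5.86 and 6.09 in wild-type glands. The groups did not overlap, and the level fell to 47.2% of wild type (-1.08 ± 0.17, adjusted p = 0.00748). Luminal epithelial markers lay lower on the same arrays, with a list mean of 5.19 to 5.44 in knockout and 7.35 to 7.54 in wild-type glands, and their part in the fall of Aldoc was not tested. Tpi1, which interconverts the triose phosphates, read 10.15, 10.32 and 10.23 against 9.77, 9.93 and 9.86. The groups did not overlap, but the difference of +0.38 ± 0.11 did not pass (adjusted p = 0.0696). Pgk1, the first ATP-yielding enzyme of the chain, read 9.26, 9.17 and 9.31 against 8.74, 8.79 and 8.93. It rose 1.35-fold at the edge of the threshold (+0.43 ± 0.11, adjusted p = 0.0491), and did not pass when any single array was dropped (0.0715 to 0.141), with array weights (0.0540) or with repeated quantile normalization (0.0762). Pgam1, a mutase, differed by +0.50 ± 0.15 (adjusted p = 0.0752), and its second, dimmer probe set by +0.62 with overlapping groups. Pkm, which makes pyruvate, showed no difference that could be measured (+0.02, interval -0.35 to +0.38). Several of these enzymes have near-identical processed copies in the genome, and whether the probes also read such copies was not tested.

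The lactate dehydrogenase genes sit where glycolysis meets mitochondria. Ldhb, whose subunit predominates in oxidative tissues and favours lactate use, read 8.19, 8.10 and 8.35 in knockout glands, against 7.13, 7.44 and 7.43 in wild-type glands. The lowest knockout array lay well above the highest wild-type array, and the gene rose 1.84-fold (+0.88 ± 0.14, adjusted p = 0.00682). Ldha, whose subunit favours lactate production, read 6.82, 6.90 and 6.86 against 6.63, 6.47 and 6.42, a difference of +0.35 ± 0.11 with groups that did not overlap (adjusted p = 0.0886). The list of thermogenic adipocyte markers also lay higher in the knockout, with means of 7.79, 7.80 and 8.33 against 5.69, 7.14 and 6.47. Of its 10 genes, 8 lay higher and 2 lower, Dio2 (-0.65) and Elovl3 (-0.67), neither past the threshold. Wild type 1 was the lowest wild-type array for both the list and Ldhb. Wild types 2 and 3 lay apart on the list but not for Ldhb (7.44 and 7.43). The lowest knockout array was knockout 1 for the list and knockout 2 for Ldhb. The part of these markers in the rise of Ldhb was not tested.

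Regulators and lactate carriers gave no call in limma. The Pfkfb genes encode enzymes that set fructose 2,6-bisphosphate, an activator of phosphofructokinase. Pfkfb3, an inducible form, read 8.21, 8.85 and 9.03 in knockout glands, against 8.85, 8.36 and 8.26 in wild-type glands, so the groups overlapped (+0.21, interval -0.36 to +0.77). Pfkfb2, a form known from heart, differed by +0.07 (interval -0.21 to +0.36). Pfkfb4 differed by -0.50 (interval -1.13 to +0.13), and its knockout arrays spread from 3.78 to 4.96. None of these 3 genes had an unadjusted p under 0.05. Slc16a1, a lactate and ketone body carrier, read 8.18, 8.21 and 8.15 against 7.62, 7.94 and 7.85. Its groups did not overlap (+0.37 ± 0.12), and it was the 1 of 2 lactate carriers with an unadjusted p under 0.05 (adjusted p = 0.0964). Slc16a3, the carrier of lactate-exporting cells, differed by +0.10 (interval -0.44 to +0.65).

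Among the oxygen-sensing genes, Hif1a and Epas1 lay apart in opposite directions. Hif1a read 7.84, 7.76 and 7.83 log2 units in knockout glands, against 8.25, 8.43 and 8.37 in wild-type glands. No arrays overlapped, and the level fell to 68.7% of wild type (-0.54 ± 0.11, adjusted p = 0.0185). The call was lost without knockout 2 (adjusted p = 0.0727), wild type 2 (0.0547) or wild type 3 (0.0616). It was also lost in the mean with a second probe set (-0.38, adjusted p = 0.191), which averaged 2.34 in knockout and 2.55 in wild-type glands, below the 33rd percentile of levels over genes (2.68). Epas1, which encodes the alpha subunit abundant in endothelium and fat, read 10.35, 10.47 and 10.50 against 10.01, 10.08 and 10.10. Every knockout array lay above every wild-type array, but the difference of +0.38 ± 0.11 did not pass (adjusted p = 0.0609). It passed in 4 of 14 alternative fits. These left out the dimmest genes (adjusted p = 0.0347), centred array medians (0.0298) or used an intensity trend (0.00691) or robust trend (0.00712). Epas1 passed in 0 of the 6 fits with 1 array left out (0.0906 to 0.167). Endothelial markers had list means of 7.91 to 8.38 in knockout and 7.56 to 7.73 in wild-type glands. Their part in the Epas1 values was not tested. Luminal epithelial and fibroblast markers lay lower in the knockout, and their part in the fall of Hif1a was not tested. The shared partner Arnt differed by -0.13 (interval -0.40 to +0.14). Of the prolyl hydroxylases, Egln1 (+0.28 ± 0.11) and Egln2 (+0.30 ± 0.11) had groups that did not overlap but did not pass (adjusted p = 0.145 and 0.139), and Egln3, itself a classical hypoxia target, differed by -0.03 (interval -0.33 to +0.27).

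**Figure D3:**
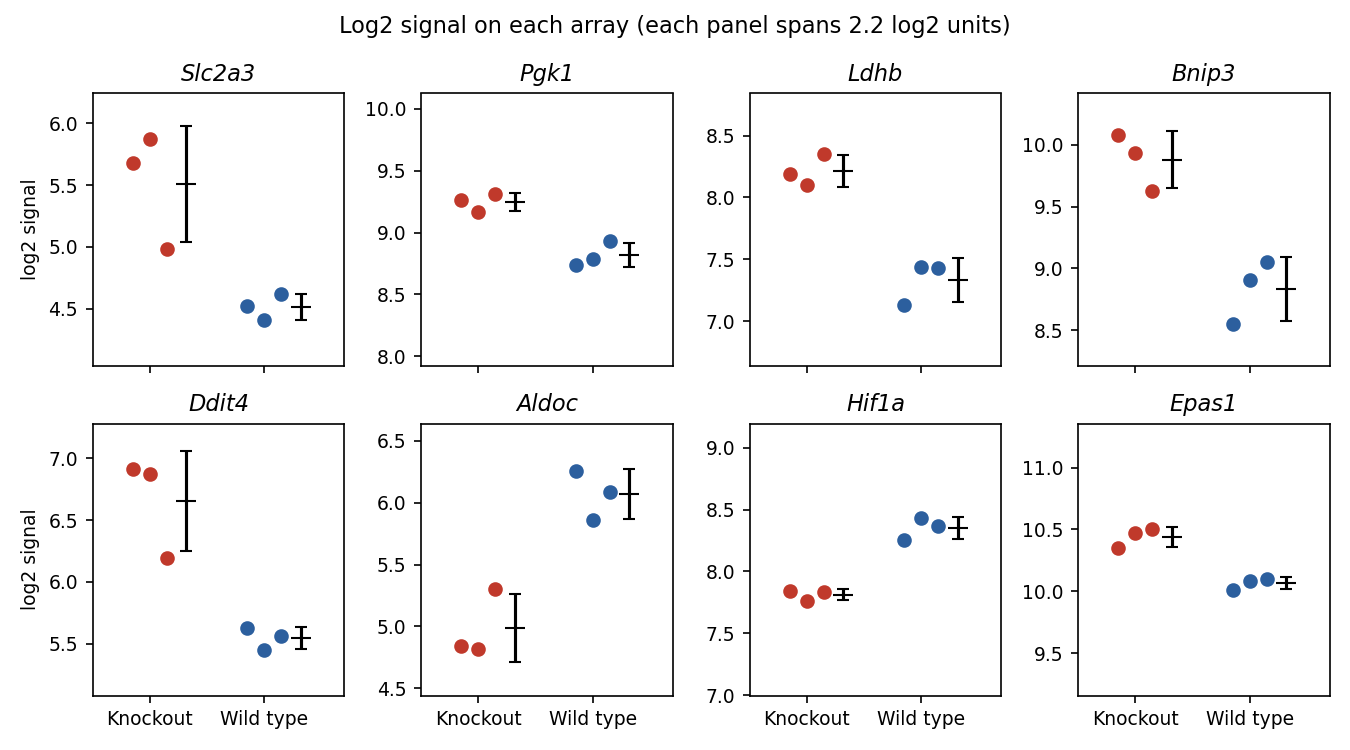
Log2 signal of the 7 genes past the threshold and of Epas1 on each knockout (red, left) and wild-type array (blue, right), with the group mean and SD in black, n = 3 per group. No panel has overlapping groups; knockout 3 is the lowest knockout array for Slc2a3, Bnip3 and Ddit4.

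The hypoxia targets outside glycolysis held the 2 largest rises among the 32 genes, Ddit4 and Bnip3, and 4 genes that did not pass the test. Bnip3, a mitophagy receptor of the outer mitochondrial membrane, read 10.08, 9.93 and 9.63 in knockout glands, against 8.55, 8.91 and 9.05 in wild-type glands. It rose 2.06-fold without overlap (+1.04 ± 0.18, adjusted p = 0.00907). Ddit4, an inhibitor of mTORC1 induced by hypoxia, glucocorticoids and other stresses, read 6.91, 6.87 and 6.19 against 5.63, 5.45 and 5.56. It rose 2.16-fold without overlap (+1.11 ± 0.20, adjusted p = 0.0113). Car9, a carbonic anhydrase held to be one of the most HIF-dependent targets, read 4.11, 4.66 and 3.20 against 4.64, 4.08 and 4.25. Its groups overlapped (-0.33, interval -1.13 to +0.46), as did those of the vasodilator peptide gene Adm (-0.18, interval -0.68 to +0.31). Ndrg1, a stress-induced cytosolic protein gene, differed by +0.07 (interval -0.24 to +0.38) and Higd1a, which acts at the respiratory chain, by +0.15 (interval -0.19 to +0.49). The median over these 6 genes was +0.11, beside +0.35 over the 12 glycolytic enzymes, and the difference between the 2 medians was not tested.

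Of the 7 calls, those of Ldhb, Bnip3, Ddit4 and Aldoc were kept in all 14 alternative fits. In these, Ldhb ranged from +0.78 to +0.97, Bnip3 from +0.90 to +1.17, Ddit4 from +0.99 to +1.34 and Aldoc from -1.24 to -0.99.

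Ratios within an array set paralogs against each other without regard to array brightness. All 16 pairs within a family were compared by a two-sided exact permutation test of 3 against 3 arrays, which cannot go below 0.1 (0.178 after Benjamini-Hochberg adjustment over the pairs), and 9 pairs reached that smallest value with groups that did not overlap. The log2 ratio of Epas1 to Hif1a was 2.51, 2.71 and 2.68 in knockout glands, against 1.75, 1.65 and 1.72 in wild-type glands, a 1.90-fold shift (exact p = 0.1). The ratio of Pfkl to Pfkp was -0.41, -0.38 and -0.37 against -1.04, -1.07 and -1.08, a 1.60-fold shift with an SD of 0.02 in each group (exact p = 0.1). The ratio of Ldhb to Ldha was 1.37, 1.20 and 1.50 against 0.50, 0.97 and 1.01, a 1.44-fold shift (exact p = 0.1). The ratio of Hk2 to Hk1 shifted 1.40-fold towards Hk2 (exact p = 0.1). No pair could pass a threshold of 0.05 with these numbers of arrays, so the ratios are given as a description. They do not say which paralog changed, and they were added after values had been seen. Several pairs share a gene, so the 9 pairs are not independent, and no share over other gene pairs was computed.

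The knockout arrays also differed among themselves by role. Knockout 3 was the brightest knockout array for 8 of the 12 glycolytic enzymes and the dimmest for 0, and it was the dimmest for 5 of the 6 other hypoxia targets. Over all genes it was brightest for 36.6% and dimmest for 32.8%. Its mean over the other hypoxia targets was 6.76, beside 7.19 and 7.24 in knockouts 1 and 2 and 6.66 to 6.85 in wild-type glands. Endothelial markers were brightest on knockout 3 for 10 of 10 genes, and thermogenic markers for 8 of 10. How far these go with the members' values was not tested.

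**Figure D4:**
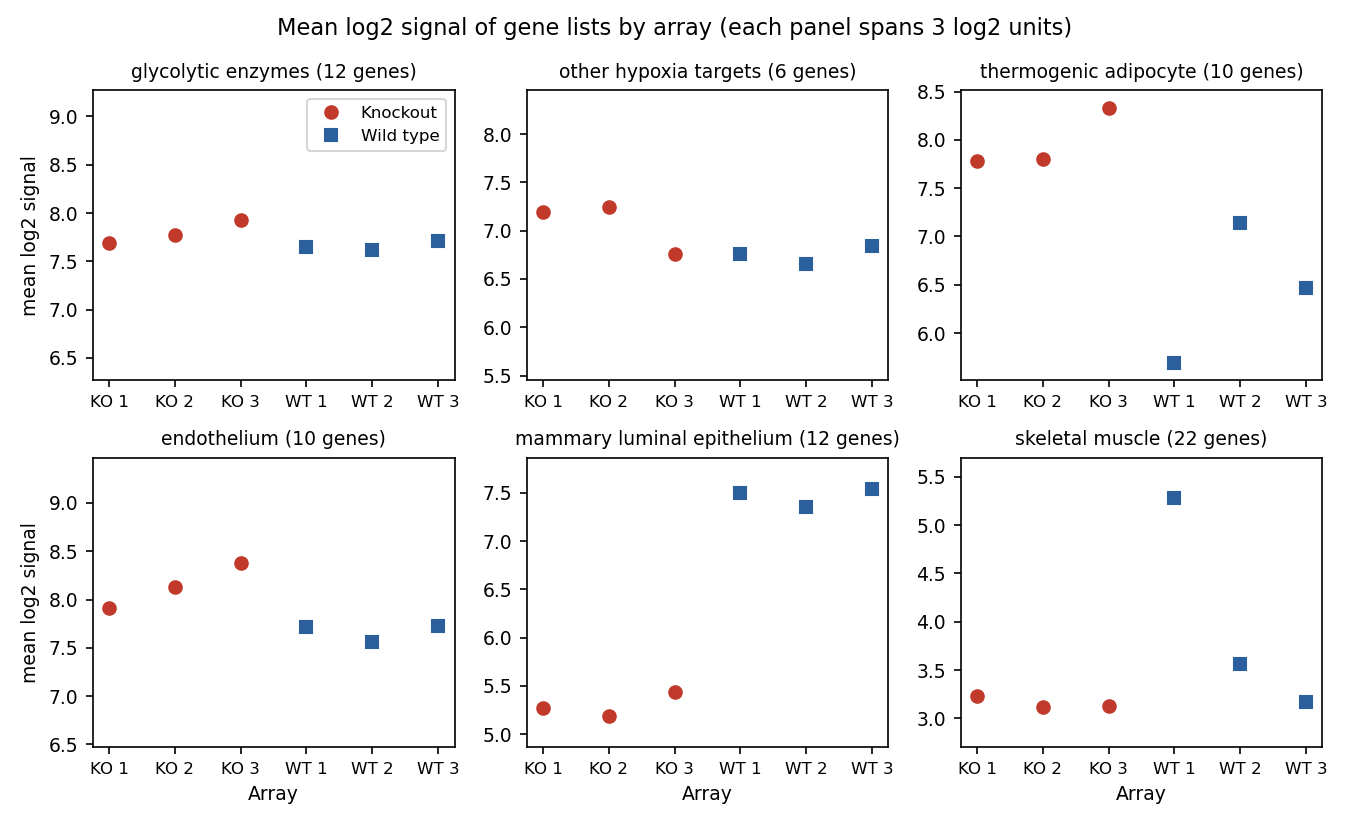
Mean log2 signal over the genes of 6 lists on each array, knockout arrays (red circles) left of wild-type arrays (blue squares), with 3 log2 units in each panel. The glycolytic and hypoxia lists differ between groups by far less than the thermogenic and luminal epithelial marker lists, and wild type 1 is highest for skeletal muscle.

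Glycolysis genes outside the 38 also gave calls in both directions. Of 21 measured, 5 rose and 1 fell, with a median difference of +0.02. These calls are 28.6% of the list, beside 12.2% over all genes, where 5.05% rose and 7.2% fell. Slc16a7, a pyruvate and lactate carrier, read 9.21, 9.02 and 9.08 in knockout glands, against 8.19, 8.45 and 8.34 in wild-type glands, a 1.71-fold rise (+0.77 ± 0.12, adjusted p = 0.00735). Fbp2, the muscle-type fructose bisphosphatase, which runs against the phosphofructokinase step, rose 2.19-fold (+1.13 ± 0.25, adjusted p = 0.0260). Txnip, a glucose-induced inhibitor of glucose uptake, rose by 0.89 ± 0.22, Gpd1, which turns a glycolytic intermediate into glycerol phosphate for triglycerides, by 0.57 ± 0.13, and the carrier Slc2a8 by 0.53 ± 0.13. Pgm2, a phosphoglucomutase, fell by 0.55 ± 0.12. Of these 6 genes, Slc16a7 kept its call in all 14 alternatives. Without 1 array, Fbp2 lost its call in every case but wild type 3 (adjusted p 0.0547 to 0.0919), Gpd1 in every case but wild type 1 (0.0661 to 0.0837), Pgm2 in every case but knockout 3 (0.0533 to 0.0824) and Slc2a8 in every case (0.0636 to 0.0997). Txnip lost it without knockout 1 or 2 or wild type 1 or 2 (0.101 to 0.117). Gapdh, a glycolytic enzyme often used as a reference transcript, differed by +0.02 ± 0.11.

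Hypoxia genes outside the 38 moved strongly in both directions. Of 29 measured, 4 rose, 8 fell and 17 did not pass, with a median difference of -0.02. The 12 calls are 41.4% of the list, beside 12.2% over all genes, where 5.05% rose and 7.2% fell. The list was chosen with earlier results of these data known, and 0 of its genes had a group mean below the 33rd percentile of levels. Angptl4, an inhibitor of lipoprotein lipase that fasting and fatty acids also induce, read 9.93, 10.44 and 9.61 in knockout glands, against 7.56, 8.43 and 8.58 in wild-type glands, a 3.50-fold rise (+1.81 ± 0.30, adjusted p = 0.00903). Hif3a, which encodes an alpha subunit with inhibitory forms, rose 2.28-fold, the angiogenic factor gene Vegfa 1.66-fold and the glycogen synthase gene Gys1 1.67-fold. These rises were kept in all 14 alternatives. Among the falls, Stc2, a secreted glycoprotein gene, read 6.28, 6.01 and 6.12 against 7.34, 7.47 and 7.29, a 2.35-fold fall (-1.23 ± 0.12, adjusted p = 0.00120). P4ha2, a collagen prolyl hydroxylase subunit, fell to 43.8% and Bhlhe41, a clock-linked repressor, to 45.8% of the wild-type level. Car12, a membrane carbonic anhydrase, fell to 36.3% as read (-1.46 ± 0.29, adjusted p = 0.0162), and 1 knockout array read below the 33rd percentile of levels over genes. The Car12 call was lost without knockout 1 (adjusted p = 0.0519) or knockout 2 (0.0595). Luminal epithelial and fibroblast markers also lay lower on the knockout arrays, and their part in the falls of this list was not tested.

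**Figure D5:**
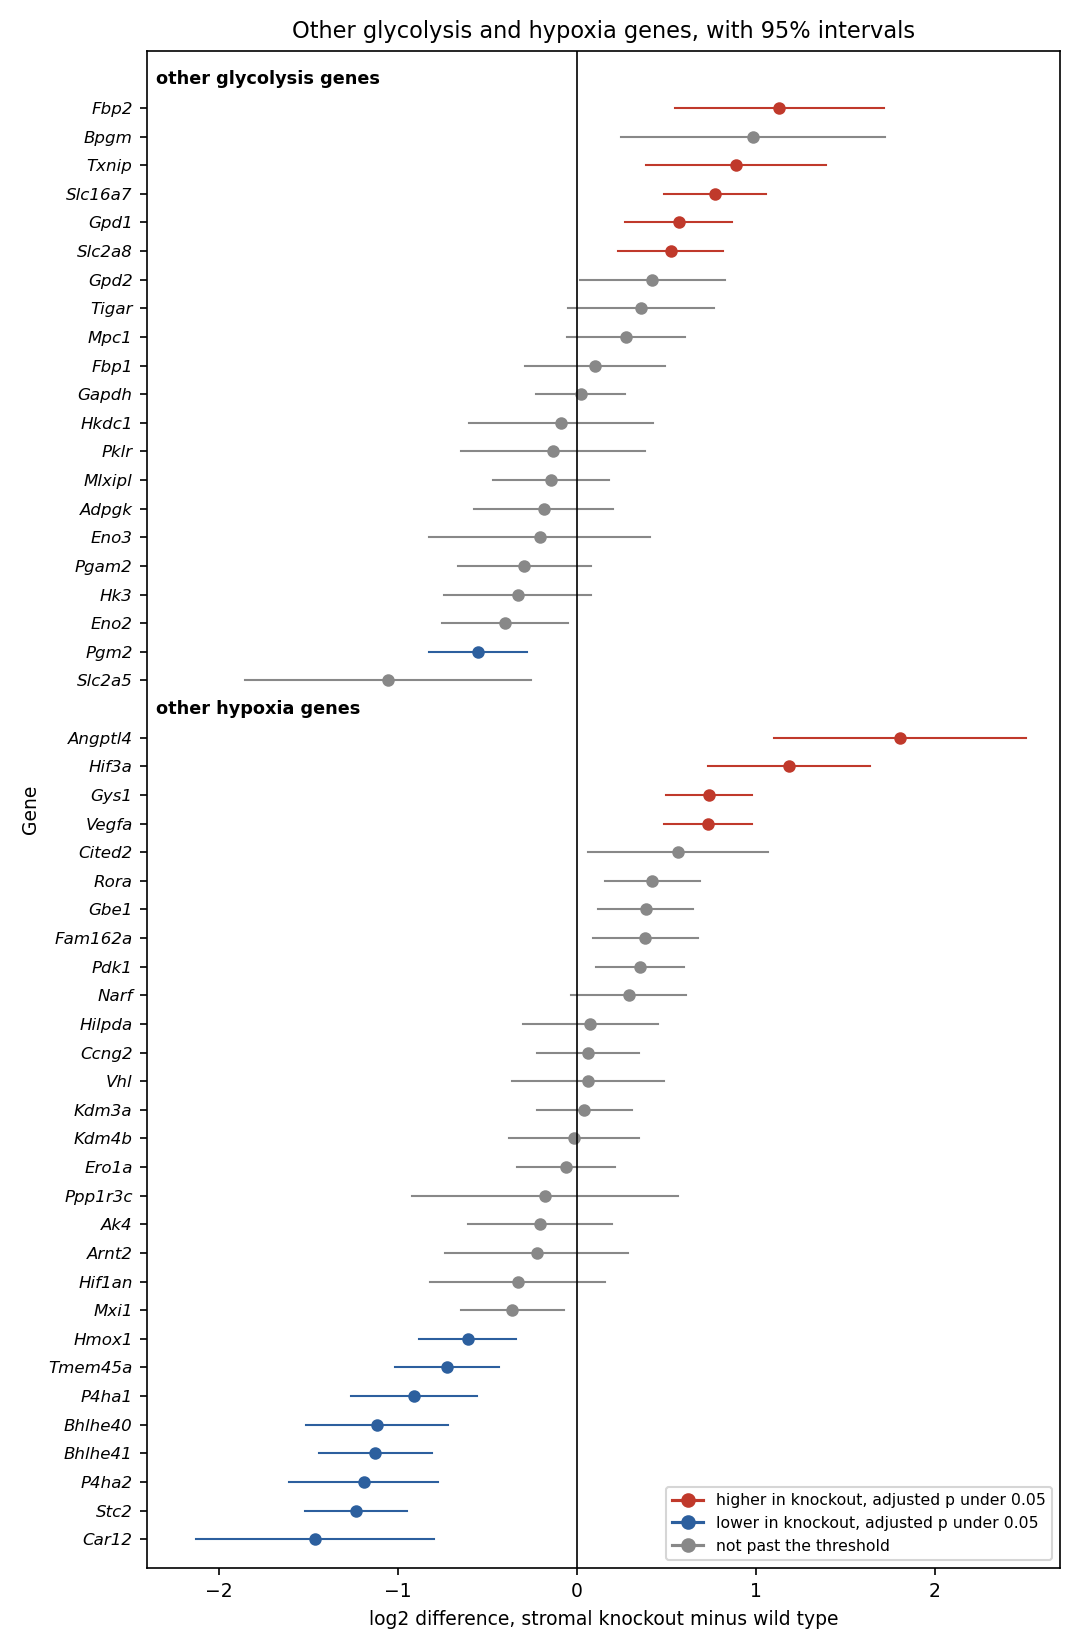
Difference of 21 other glycolysis genes and 29 other hypoxia genes in log2 units, knockout minus wild type, with 95% intervals, coloured by the call. Angptl4 (+1.81) and Car12 (-1.46) lie at the ends of the hypoxia list, and Gapdh (+0.02) lies near 0.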

How the data were processed

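Total RNA of 6 whole mammary glands, 3 stromal knockout and 3 wild type, was hybridised to 1 array each. The deposited values are log2 signals per probe set, made by the authors with RMA, which corrects background, normalizes quantiles and summarises probes, per the submitters' processing notes, which name RMA and limma without versions. A log base of 2 was inferred from RMA and the range of values. The chip definition and probe filters were not stated in the sources used here. Of 41345 probe sets, 23521 carry 1 gene symbol in the platform annotation, 1814 carry several and 16010 are unnamed here. The brightest probe set per symbol was kept, giving 22180 genes, and symbols were looked up in RefSeq GRCm38.p6, which altered 0 of them.

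The groups were compared in R 4.3.3 with limma 3.58.1 (lmFit, then eBayes), with Benjamini-Hochberg adjustment over all genes and a threshold of 0.05. Differences are knockout minus wild type in log2 units, with the moderated SE and 95% interval of that fit, and the number of arrays limits the precision. Paralog ratios were tested by exact permutation and were added after values had been seen. The fit was tested on simulated data for this comparison with 22180 genes, of which 200 were changed. It recovered 7 of 70 genes with a true change of 0.5 log2 units, 50 of 64 with 1 unit and 66 of 66 with 2 units. In the data 2717 genes were called, so the adjustment was stricter in the simulation. These counts therefore do not measure recovery in the data.

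The members, the 2 lists of other pathway genes and the 11 lists of cell type markers were chosen with earlier results of these data known. The rule for named genes gave array values for every member past the threshold, for the HIF subunits, for each role's brightest member and for members whose call changed without 1 array, and took up to 4 other pathway genes per list and direction by size. The fifth rise among the other glycolysis genes and further members and Gapdh were named after their values had been seen. Promoter sequences are those of RefSeq, GRCm38.p6. Alternatives are given in the closing section.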

Additional observations from a re-analysis of the deposited data

How the results depend on the processing

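Over 14 alternative fits, the 7 calls among the 32 genes never changed direction, and of 448 values for these genes 13 had the opposite sign to the reported one, each for a gene that did not pass. The 5 rises became 10 with an intensity trend and 10 with a robust trend (Tpi1, Pgam1, Slc16a1, Epas1 and Egln1 added), 9 with array-median centring and 3 with the replicate number as a block. The 2 falls became 1 with the mean of probe sets and 1 with the replicate block. With 1 array left out there were 3 to 4 rises, 1 to 2 falls and 1490 to 2304 calls over all genes, beside 2717 with all arrays; fewer arrays leave the test fewer degrees of freedom. Under centring, the median over all genes was 0.12 in place of 0.03, and 1768 genes were called higher and 1333 lower, beside 1121 and 1596. Deviations of same-numbered arrays correlated at -0.05 to -0.03 and the numbers share no stated litter, so pairing was not used; the block left 1923 calls, and Slc2a3 (adjusted p = 0.0507), Pgk1 (0.106) and Hif1a (0.0629) among the members did not pass in it. Signs turned for Pkm with array weights (-0.013) and repeated quantile normalization (-0.018), for Egln3 with centring (0.059) and for Ndrg1 with the mean of probe sets (-0.022). With 1 array left out, Pkm ranged from -0.098 (knockout 3 left out) to 0.129, Slc16a3 from -0.048 (wild type 1) to 0.384, Egln3 from -0.125 to 0.040 (knockout 3), Car9 from -0.669 to 0.063 (knockout 3), Adm from -0.389 to 0.012 (knockout 3) and Ndrg1 from -0.047 (wild type 2) to 0.131. Other than where stated, the cause was not tested. No detection calls were used here, so which dim probe sets lie above background was not tested. Changes of 0.5 log2 units were seldom recovered in simulated data, where 200 genes changed and the adjustment was stricter than in the data.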

Other observations

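Of the other glycolysis genes that did not pass the test, Bpgm and Slc2a5 had the largest differences. Bpgm, which makes the red cell effector of haemoglobin, read 6.23, 7.62 and 6.64 log2 units in knockout glands, against 5.70, 5.98 and 5.86 in wild-type glands (+0.99 ± 0.32, limma adjusted p = 0.0886). All knockout arrays lay above all wild-type arrays, and knockout 2 was brightest. Of 8 listed erythroid markers 3 were measured. Slc4a1, a red cell anion exchanger, read 4.18, 7.02 and 4.57 in knockout glands, against 2.82, 2.98 and 3.99 in wild-type glands, and was brightest on knockout 2. Klf1, an erythroid transcription factor, read 2.50, 2.10 and 1.96 against 2.01, 2.72 and 2.36 and was dimmest on knockout 3, and Epb42, a red cell membrane protein gene, read 2.82, 3.43 and 2.98 against 2.29, 2.37 and 2.23. Klf1 lay below the 33rd percentile of levels over genes (2.68) on 5 arrays and Epb42 on 3. Their part in the Bpgm values was not tested. Slc2a5, the fructose carrier, read 5.10, 5.66 and 6.50 in knockout glands, against 6.78, 6.46 and 7.19 in wild-type glands (-1.05 ± 0.34, adjusted p = 0.0919), with knockout 3 inside the wild-type range.

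In the longer hypoxia list of 29 genes, knockout 3 was the dimmest knockout array for 9 genes (31.0%) and the brightest for 12 (41.4%), beside 32.8% and 36.6% over all genes. The tally for the 6 other hypoxia targets, where it was dimmest for 5, was not repeated there. Among the 4 rises of that list, Angptl4 and Hif3a were dimmest on knockout 3, at 9.61 beside 9.93 and 10.44, and at 5.55 beside 6.04 and 6.23. Vegfa was also dimmest there by a small margin, at 10.93 beside 10.97 and 11.01, whereas Gys1 was brightest on knockout 3, at 9.74 beside 9.67 and 9.69.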
